A study of Mus musculus with 12 samples.

Results

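The 42 cytoskeleton and synapse genes of young neurons described here, called the members below, were examined in mouse cortex at embryonic day 14 with and without the transcription factor AP2gamma. The members were chosen by name for what they do, with earlier results of these data known. Of them 21 encode microtubule, neurofilament and growth cone proteins, and 7 encode adhesion and axon initial segment proteins. A further 4 encode neuronal RNA-binding proteins, 8 encode presynaptic proteins, and the other 2, Scrn1 and Hpca, are further neuronal genes. They are 42 of the 18194 genes named on the array, and 119 of the 34958 probe sets that name 1 gene belong to them. A probe set, a group of short probes read as 1 value, was tested where it lay above 5.21, the median of the table on the log2 scale (its base was read from the range of the values), on at least 3 arrays. By that rule 110 of the 119 probe sets were tested and each of the 42 genes kept at least 1. Each gene is given below by its tested probe set of highest mean over all arrays, and for all 42 that probe set lay above 5.21 on all 12 arrays, so that none of them passed through 1 group alone.

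Neurons that have just left the cell cycle build an axon and dendrites from microtubules, which tubulins form, doublecortin and the MAP proteins bind and stabilise, and stathmins take apart. The growth cone at the axon's tip reads guidance cues through collapsin response mediator proteins and adhesion molecules, and neurofilaments later fill the axon shaft. Presynaptic proteins, among them the SNARE proteins that fuse vesicles and the synapsins that hold vesicles in reserve, are made in the cortex well before synapses are common.

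The series compared 4 groups of 3 biological replicates, 12 arrays of 1 colour in all, and its title concerns basal progenitors, which divide away from the ventricle and give rise to neurons. The groups were caudal cortex of AP2gamma knock-out (KO) mice (animals 1, 2 and 13), caudal cortex of control wild-type (WT) mice (animals 4, 6 and 14), rostral cortex of KO mice (animals 7, 8 and 15) and rostral cortex of WT mice (animals 10, 12 and 16). All groups shared the stage, the column extraction with DNase treatment and the amplification and biotin labelling of 400 ng of total RNA. The labels do not give the promoter or Cre line behind the knock-out, the strain or the sex of the embryos. Xist, a check on sex, read 11.3 in caudal WT animal 6 and 11.9 in rostral WT animal 12. On the other arrays, every KO array among them, it read 2.39 to 5.48. High Xist was therefore seen in WT cortex only, and the members Dcx, L1cam and Syn1 lie on the X chromosome. Every array carried its own animal number, so the labels tie no rostral sample to a caudal one. Whether arrays of different numbers could come from the same embryo is not stated.

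Tfap2c, the gene of AP2gamma, had values of 7.71, 7.86 and 7.44 in caudal KO cortex, against 9.19, 8.84 and 8.64 in caudal WT cortex. In rostral cortex it had 8.11, 8.63 and 8.09 in KO animals, against 9.06, 9.0 and 8.54 in WT animals, so that rostral KO animal 8 lay above rostral WT animal 16. Where the probes lie relative to the deleted part is not given in the sources used here. The 6 tested genes of the dorsal cortex list were above 5.21 on all 12 arrays, with Neurod6, of young excitatory neurons, at 11.57 to 12.40. Of the ganglionic eminence and interneuron list, Dlx1, Dlx2, Dlx5, Lhx6, Gad1 and Gad2 were above it on all 12 arrays too and Gsx2 on 6, whereas Nkx2-1, of the ventral forebrain, was below it on all 12. Rostral KO animal 15 stood apart in 3 meningeal genes, with a mean of 8.80 against 4.89 to 6.10 on the other arrays. Caudal WT animal 6 was highest in 2 choroid plexus genes, with a mean of 7.52 against 4.00 to 5.77 on the other arrays. Arrays of 1 group correlated at 0.918 to 0.954 (Spearman, across probe sets). The number of arrays limits the precision of every value below.

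The comparison of region asked which members differed between caudal and rostral cortex, labelled with different animal numbers. Over both genotypes 8 of 42 members passed the threshold (limma, adjusted p under 0.05 over the 11785 genes tested), 7 higher in caudal cortex and 1 lower. Of all genes tested 4.46% passed, 1.26% as higher and 3.21% as lower, so 7 of 42 stands beside 1.26% and 1 of 42 beside 3.21%. Because the members were chosen with earlier results of these data known, these shares are no test of the list. The 7 higher members came from every class: the calcium sensor gene Hpca, the presynaptic genes Syt4 and Syn2, the growth cone gene Dpysl4, the neurofilament gene Nefm, the RNA-binding gene Rbfox3 and the adhesion gene Cntn2. The lower member was Scrn1. The remaining 34 members did not pass, and for 26 of the 42 the 95% interval of the difference lay within 0.5 of 0 on the log2 scale.

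Hpca encodes hippocalcin, a calcium-binding protein of neurons that moves to the membrane when calcium rises. Its log2 values in caudal cortex were 8.30, 8.10 and 7.51 in KO animals and 8.05, 8.55 and 8.46 in WT animals. Rostral arrays read 7.07, 6.96 and 6.15 in KO animals and 6.40, 7.15 and 7.29 in WT animals. Every caudal array lay above every rostral array, and within each region the genotypes overlapped. The difference was 1.32 ± 0.20 (SE, 6 arrays against 6), a 2.50-fold higher signal in caudal cortex (limma adjusted p = 0.0025). A second probe set of the gene gave 1.33 ± 0.27.

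Syt4 encodes a synaptotagmin, a membrane protein of transport vesicles. In caudal cortex it had values of 10.31, 10.35 and 10.08 in KO animals and 9.81, 10.32 and 10.40 in WT animals. In rostral cortex it had 9.55, 9.52 and 9.26 in KO animals and 9.66, 9.04 and 9.61 in WT animals. The lowest caudal array, that of WT animal 4, was still above the highest rostral one. The difference was 0.77 ± 0.13 (adjusted p = 0.0035), or 1.71-fold. The gene's other tested probe set gave 0.43 ± 0.16, which did not pass across single probe sets (adjusted p = 0.22).

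Syn2 encodes synapsin II, one of the phosphoproteins that coat synaptic vesicles. Caudal values were 7.83, 7.75 and 7.83 in KO animals and 7.68, 8.12 and 7.93 in WT animals. Rostral values were 7.43, 7.12 and 7.42 in KO animals and 6.97, 7.30 and 7.45 in WT animals. No rostral array reached a caudal one. The difference was 0.58 ± 0.11 (adjusted p = 0.0084), 1.49-fold, and all 4 tested probe sets of the gene passed across single probe sets, at 0.58 to 1.04. Syn1, the other synapsin gene of the list, differed by 0.09 (95% interval -0.15 to 0.33).

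Dpysl4 encodes a collapsin response mediator protein, a family that links guidance receptors to microtubules. Its caudal values were 9.07, 8.86 and 8.30 in KO animals and 9.36, 9.04 and 8.84 in WT animals, and KO animal 13 was the lowest. Rostral values were 8.31, 8.07 and 8.16 in KO animals and 8.32, 8.26 and 8.41 in WT animals. In WT cortex the regions did not overlap, and in KO cortex animal 13 lay just below the highest rostral KO array. The difference was 0.65 ± 0.13 (adjusted p = 0.0089), 1.57-fold, and the gene's 3 tested probe sets gave 0.55 to 0.65. The 4 relatives on the list lay between -0.05 (Dpysl5) and 0.05 (Crmp1 and Dpysl3), with Dpysl2 at -0.03, and none passed.

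**Figure D1:**
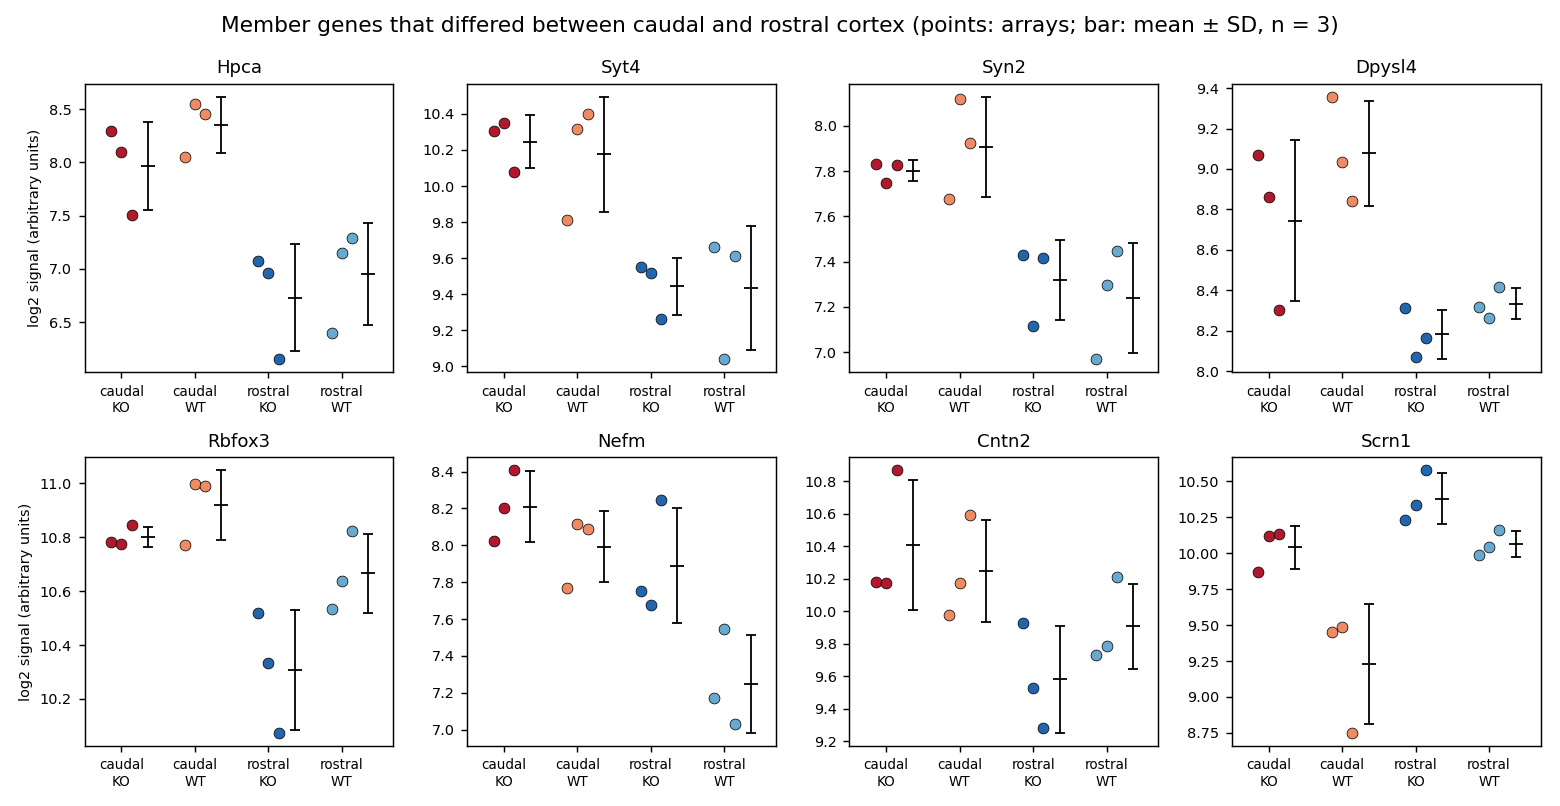
Log2 signal (arbitrary units, vertical axes, each gene on its own scale) of the 8 members that passed in caudal against rostral cortex, with 1 point per array and bars of mean ± SD (n = 3) for caudal KO, caudal WT, rostral KO and rostral WT. Hpca, Syt4 and Syn2 are higher on all 6 caudal arrays than on any rostral array, and Scrn1 is lower in caudal than in rostral cortex within each genotype.

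Nefm encodes the middle neurofilament subunit. Caudal values were 8.03, 8.20 and 8.41 in KO animals and 7.77, 8.12 and 8.09 in WT animals, and rostral values were 7.75, 7.67 and 8.25 in KO animals and 7.17, 7.55 and 7.03 in WT animals. The regions did not overlap in WT cortex and did in KO cortex, where rostral animal 15 was high. The difference was 0.53 ± 0.13 (adjusted p = 0.031), 1.45-fold. The other intermediate filament genes leaned the same way without passing: Nefl, the light subunit, by 0.53 ± 0.20 (adjusted p = 0.19), and Ina, which encodes alpha-internexin, by 0.32 ± 0.09 (adjusted p = 0.052).

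Rbfox3 encodes the splicing regulator known as the NeuN antigen of mature neurons. Caudal values were 10.78, 10.77 and 10.84 in KO animals and 10.77, 11.00 and 10.99 in WT animals. Rostral values were 10.52, 10.33 and 10.08 in KO animals and 10.53, 10.64 and 10.82 in WT animals. The regions were apart in KO cortex, and in WT cortex rostral animal 16 overlapped the caudal arrays. The difference was 0.37 ± 0.08 (adjusted p = 0.015), 1.29-fold, but the gene's 3 tested probe sets ranged from 0.01 to 0.37, and with their mean in place of the highest one the difference was 0.22 (adjusted p = 0.28).

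Cntn2 encodes an adhesion molecule of the immunoglobulin superfamily carried by the axons of early cortical neurons. Caudal values were 10.18, 10.18 and 10.87 in KO animals and 9.97, 10.18 and 10.59 in WT animals. Rostral values were 9.93, 9.53 and 9.28 in KO animals and 9.73, 9.78 and 10.21 in WT animals. The regions overlapped in WT cortex and not in KO cortex. The difference was 0.58 ± 0.15 (adjusted p = 0.049), 1.5-fold, close to the threshold: it passed in 9 of 28 other ways of processing, with an adjusted p of 0.018 to 0.15 over them. Nefm passed in 17 and Rbfox3 in 26 of the 28, whereas Hpca, Syt4, Syn2, Dpysl4 and Scrn1 passed in all 28.

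Scrn1 encodes secernin 1, a cytosolic protein first linked to exocytosis in mast cells. It was the only member lower in caudal cortex that passed. Caudal values were 9.87, 10.12 and 10.14 in KO animals and 9.45, 9.49 and 8.75 in WT animals, with WT animal 14 the lowest. Rostral values were 10.23, 10.33 and 10.58 in KO animals and 9.99, 10.05 and 10.16 in WT animals. Caudal arrays lay below rostral arrays within each genotype, while caudal KO arrays reached the level of rostral WT arrays. The difference was -0.59 ± 0.12 (adjusted p = 0.012), 0.67-fold, and all 3 probe sets passed across single probe sets, at -0.84 to -0.59.

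Because AP2gamma is the factor removed in these mice, the bases around the starts of 3 members are shown with matches to the AP2 palindrome GCCNNNGGC, which reads the same on both strands, in capitals. Scrn1 is shown as the member of smallest p between genotypes, Syn2 as a presynaptic member that differed by region on every tested probe set, and Rbfox3 as a member with no match. Each stretch runs from 150 bases before to 30 after the RefSeq start (GRCm38.p6): Scrn1 at chr6:54566353-54566532 on the minus strand, Syn2 at chr6:115134752-115134931 on the plus strand, and Rbfox3 at chr11:118761012-118761191 on the minus strand.
Scrn1: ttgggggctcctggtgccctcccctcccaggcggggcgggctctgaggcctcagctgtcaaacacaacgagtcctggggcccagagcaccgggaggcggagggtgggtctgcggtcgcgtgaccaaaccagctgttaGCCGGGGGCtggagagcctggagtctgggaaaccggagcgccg
Syn2: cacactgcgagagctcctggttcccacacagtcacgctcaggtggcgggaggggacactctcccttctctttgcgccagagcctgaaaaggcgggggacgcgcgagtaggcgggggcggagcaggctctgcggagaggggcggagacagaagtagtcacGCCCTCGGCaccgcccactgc
Rbfox3: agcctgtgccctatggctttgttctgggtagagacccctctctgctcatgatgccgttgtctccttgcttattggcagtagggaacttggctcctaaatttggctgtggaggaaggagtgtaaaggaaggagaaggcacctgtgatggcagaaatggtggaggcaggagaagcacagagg

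The match begins 13 bases before the start of Scrn1 and 9 bases after that of Syn2. In windows of 250 bases before to 50 after a start, 26 members were listed with 46 windows, and 6 windows of 6 genes held the palindrome: Crmp1, Map1b, Rab3a, Scrn1, Stx1a and Syn2. That is 13.0% of the members' windows, against 16.6% of all 32851 windows of the table. Counted by gene it was 6 of 26 members, a larger share than the 18.5% of all 27025 genes. Of these 6 genes Scrn1 and Syn2 passed by region and none passed by genotype. Of 3 other motifs searched on both strands, CAGATG, an E-box bound by proneural factors, was in 17.4% of the members' windows and 17.2% of all. TTCAGCACC, the left part of the RE1 element through which REST silences neuronal genes, was in 2 members' windows (Celsr3 and Syn1) and in 0.371% of all, and GGACAGCG, its right part, in 1 (Crmp1) and in 1.26% of all. A match describes letters only.

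Within WT cortex alone 2 of 42 members passed (all genes: 0.942%, 0.255% higher and 0.687% lower), Hpca at 1.40 ± 0.29 (adjusted p = 0.037) and Scrn1 at -0.83 ± 0.17 (adjusted p = 0.033). Within KO cortex alone none passed (all genes: 0.95%), although 10 had an unadjusted p under 0.05 (all genes: 13.2%), and Syt4 came closest at 0.80 ± 0.18 (adjusted p = 0.053). The count in WT cortex rested on single arrays: it was 0 without caudal KO animal 2, rostral KO animal 8 or any 1 of rostral WT animals 10, 12 and 16, and 1 without caudal WT animal 6 or 14. In KO cortex it was 2 without caudal WT animal 4, and 1 without any 1 of caudal KO animal 13, caudal WT animal 14, rostral KO animal 7 and rostral WT animal 12. Regions did not overlap for 9 members in WT cortex (all genes: 13.9%) and for 15 in KO cortex (all genes: 20.9%). They were apart in both genotypes, in 1 direction, for 4 members, Hpca, Syt4 and Syn2 higher and Scrn1 lower (all genes: 4.79%, 1.39% higher and 3.4% lower).

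By class, microtubule and growth cone genes had a median difference of 0.05 over both genotypes, with 12 of 21 higher in caudal cortex, beside a median of -0.019 over all genes tested. Of these Dpysl4 and Nefm passed. Tubb3, the neuronal beta-tubulin, differed by -0.06 (95% interval -0.18 to 0.06). Stmn1, a stathmin, differed by -0.04 (-0.11 to 0.04), and Map2, of dendrites, by -0.06 (-0.16 to 0.03). Dclk1, a doublecortin-like kinase, was at -0.25 ± 0.08 and did not pass (adjusted p = 0.12), while Gap43, a membrane protein of growth cones, was at 0.15 ± 0.07 (adjusted p = 0.27).

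Of the presynaptic genes 7 of 8 were higher in caudal cortex, at a median of 0.13, and Syt4 and Syn2 passed. The SNARE genes did not pass: Snap25 was at 0.10 (95% interval -0.17 to 0.38), Stx1a at 0.16 (-0.09 to 0.42) and Vamp2, the 1 member of the class that was lower, at -0.36 (-0.71 to -0.01). Syt1, the fast calcium sensor of release, was at 0.06 (-0.22 to 0.33), and Rab3a, a vesicle GTPase, at 0.22 (-0.15 to 0.59). Adhesion and axon initial segment genes were higher for 6 of 7, at a median of 0.14, and Cntn2 passed. L1cam, which guides axons in bundles, was the exception at -0.23 (-0.48 to 0.02). The RNA-binding genes had a median of 0.0038: Elavl3 and Elavl4 were at -0.11 each and did not pass, and Elavl2 was at 0.12 ± 0.04 (adjusted p = 0.19). Another Elavl2 probe set gave 0.45 ± 0.08 and passed across single probe sets (adjusted p = 0.012). Its values were 10.84, 10.57 and 10.55 in caudal KO and 10.51, 10.49 and 10.70 in caudal WT cortex, all above the 9.98 to 10.34 of the 6 rostral arrays.

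**Figure D2:**
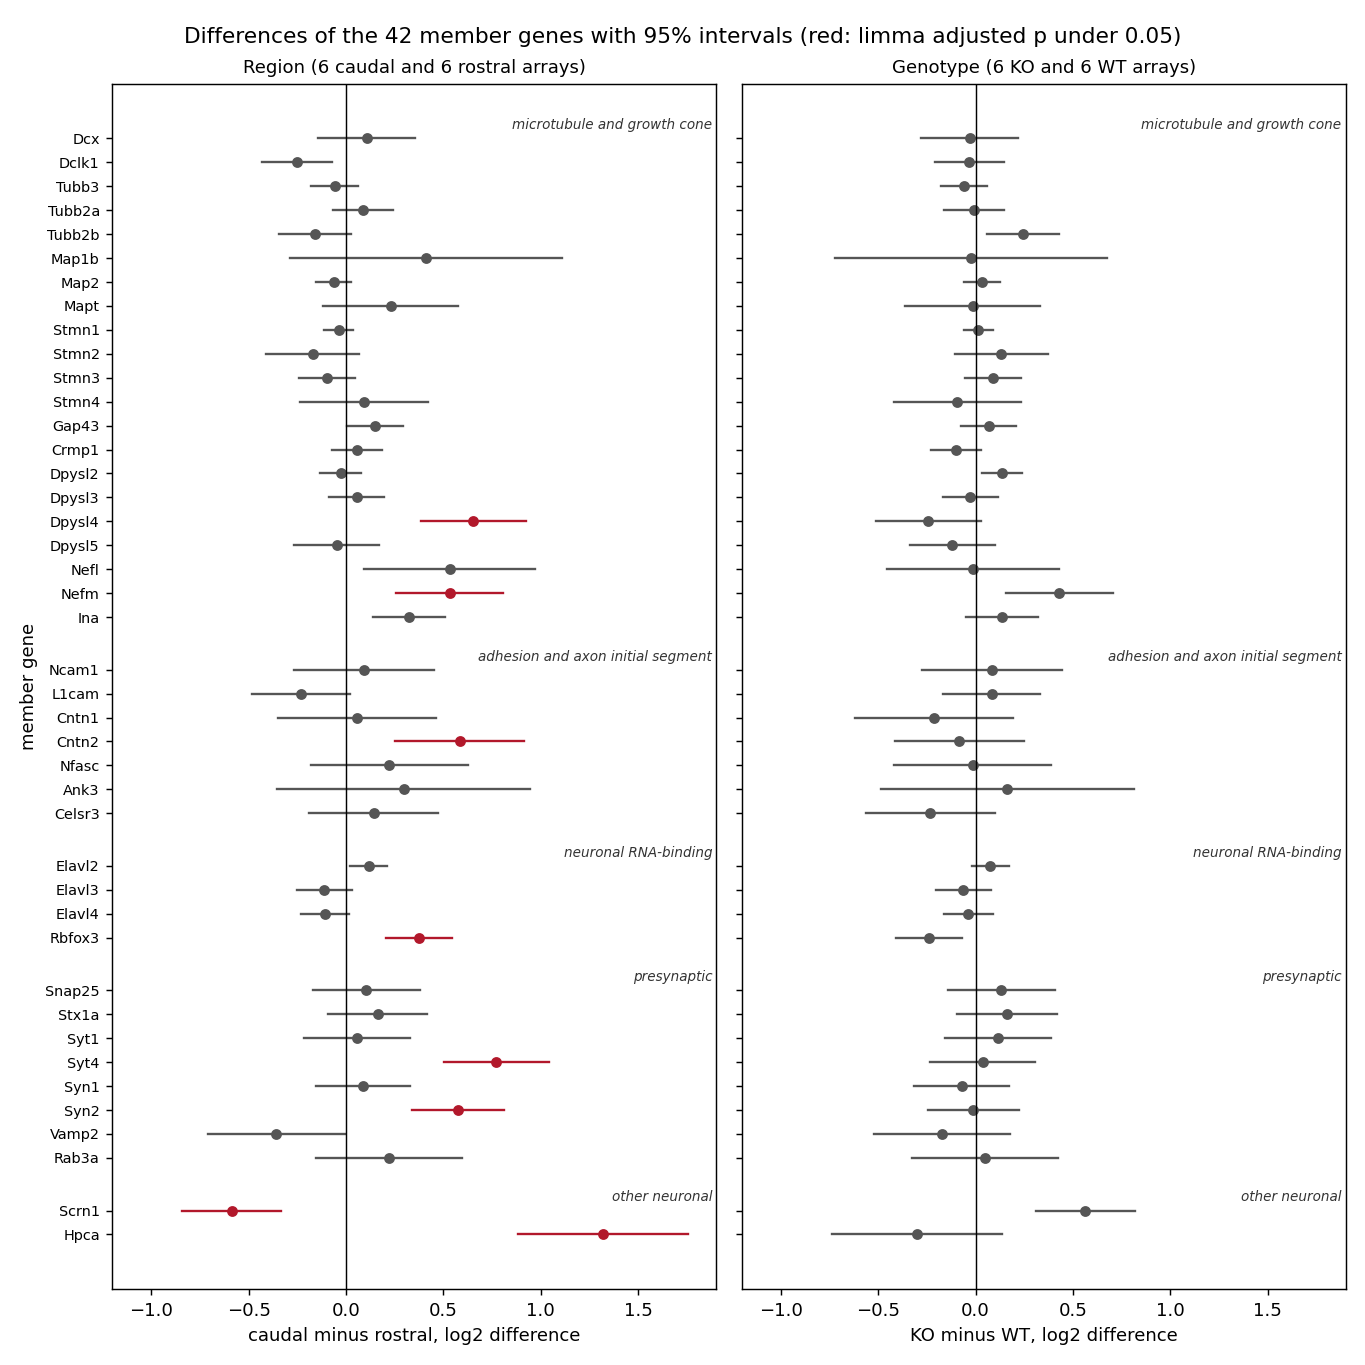
Log2 differences of the 42 members (rows, by class) with 95% intervals, caudal minus rostral on the left and KO minus WT on the right, from 6 arrays against 6 in each. Red marks a limma adjusted p under 0.05: 8 members on the left and none on the right.

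Across single probe sets 14 of the members' 110 passed by region (all 24676 probe sets tested: 2.35%), from Scrn1 (3 of 3), Syn2 (4 of 4), Hpca (2 of 2), Dpysl4 (2 of 3), Syt4 (1 of 2), Rbfox3 (1 of 3) and Elavl2 (1 of 5). Of the 34 members with several tested probe sets, 24 had all of them on 1 side of 0 and 10 did not. Map2 was the 1 member whose probe sets opposed each other at an unadjusted p under 0.05, in KO cortex. Its brightest probe set read 11.63, 11.61 and 11.72 in caudal KO cortex, against 11.74, 11.78 and 11.86 in rostral KO cortex, at -0.14 ± 0.06. A dimmer one gave 0.81 ± 0.34, with 5.87, 6.05 and 6.32 in caudal KO cortex against 5.26, 5.02 and 5.53 in rostral KO cortex. On the brightest one WT arrays lay at 11.77, 11.70 and 11.62 in caudal cortex and at 11.69, 11.68 and 11.67 in rostral cortex, and overlapped. Neither passed after adjustment (adjusted p = 0.41 and 0.42).

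**Figure D3:**
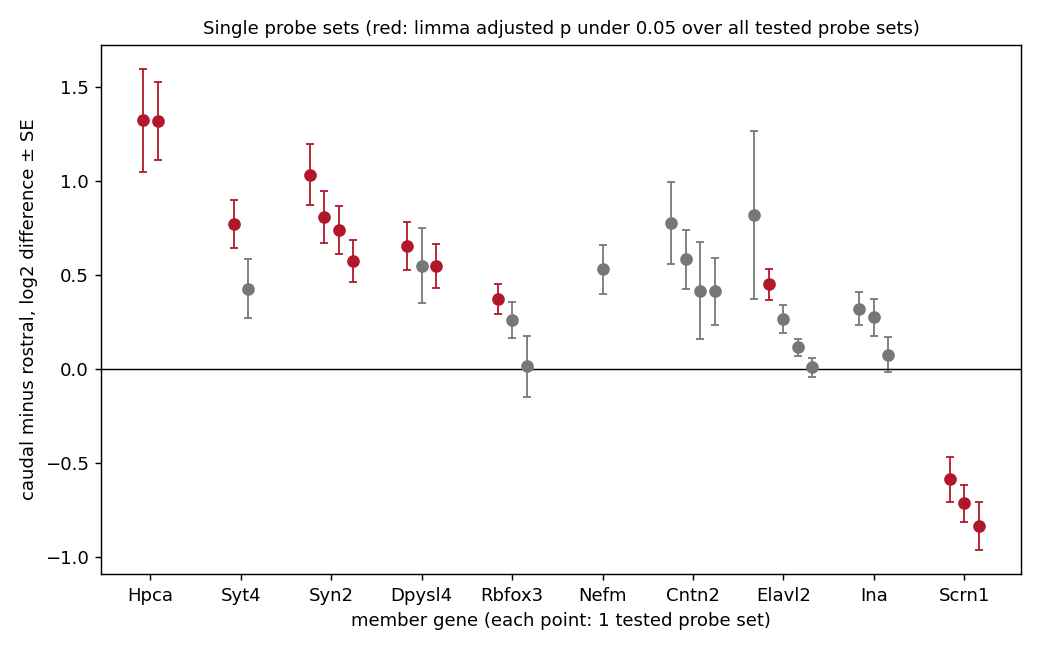
Caudal minus rostral log2 difference ± SE (vertical axis, 6 arrays against 6) of every tested probe set of the 8 members that passed and of Elavl2 and Ina, 1 point per probe set, in red where it passed across all single probe sets. The 2 points of Hpca and the 4 of Syn2 are all above 0 and red, the 3 of Scrn1 are all below 0 and red, and those of Elavl2 run from 0.01 to 0.82.

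Other lists of the same pathways did not share a direction. Of 36 tested further neuronal cytoskeleton genes 18 were higher and 18 lower in caudal cortex, and 3 passed as lower (all genes: 3.21%): Tubb4a, a beta-tubulin, at -0.69 ± 0.11, Evl, an actin-filament protein of the growth cone, at -0.43 ± 0.10, and Marcksl1, which binds actin at the membrane, at -0.23 ± 0.05. Of 36 tested further presynaptic genes 18 were higher and 18 lower, and 2 passed as higher (all genes: 1.26%): Sv2b, of the synaptic vesicle membrane, at 0.68 ± 0.10, and Amph, which acts in vesicle retrieval, at 0.47 ± 0.10.

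Markers of other cells differed by region beside these genes. Over 7 tested genes of the ganglionic eminence and interneuron list, array means were 6.67 to 7.45 in caudal cortex, against 7.57 to 8.64 in rostral cortex, with 6 of 7 lower in caudal cortex and Dlx2 (-1.06), Dlx1 (-1.16) and Dlx5 (-0.75) passing. The gene that was higher was Lhx6, at 0.48 ± 0.13 (limma adjusted p = 0.054). The means include Gsx2, which lay above 5.21 on only 6 arrays. All 11 tested cell cycle genes were lower in caudal cortex and none passed (1 at an unadjusted p under 0.05, all genes: 17.3%). Of 12 radial glia genes 5 were higher and 7 lower, and Pax6 passed as lower (-0.42 ± 0.06, adjusted p = 0.0017). Of 7 tested projection neuron genes 3 were higher and 4 lower: Foxp2 (-1.27 ± 0.15) and Cux1 (-0.31 ± 0.06) passed as lower. Of 6 tested dorsal cortex genes 2 were higher and 4 lower, with Pax6 again and Tbr1 (-0.63 ± 0.13, adjusted p = 0.013) passing as lower. Insm1 (-0.34 ± 0.07) passed among 8 basal progenitor genes, 5 of them lower, and Calb2 (-1.54 ± 0.15), which interneurons also express, among 5 Cajal-Retzius genes, 2 of them lower. None passed in the vascular, meningeal, red blood cell, microglial and choroid plexus lists (1, of red blood cells, at an unadjusted p under 0.05). The part of these markers in the members' differences was not tested. In whole tissue, fewer cells of a type and less RNA per cell cannot be told apart.

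The comparison of genotype asked whether young neuron genes differed in cortex without AP2gamma. No member passed over both regions (all genes: 0.0339%), in caudal cortex (0%), in rostral cortex (0%) or in the difference of the KO effect between regions (0%). At an unadjusted p under 0.05 there were 5 members over both regions (all genes: 7.53%), 1 in caudal cortex (4.06%), 4 in rostral cortex (6.69%) and 1 for the difference between regions (3.04%). Over both regions the 95% interval lay within 0.5 of 0 for 33 of 42 members and within 1 for all 42. The median over all members was -0.012, with 19 higher and 23 lower in KO cortex, beside -0.011 over all genes. By class it was -0.013 for microtubule and growth cone genes (9 of 21 higher) and 0.043 for presynaptic genes (5 of 8 higher).

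Scrn1 had the smallest p of the members. Its values are given above: every KO array exceeded every WT array within each region, which over both regions held for no other member (all genes: 1.18%, 0.501% as higher). The difference over both regions was 0.56 ± 0.12 (limma adjusted p = 0.20), at 0.81 ± 0.17 in caudal cortex (adjusted p = 0.38) and 0.31 ± 0.17 in rostral cortex (adjusted p = 0.77). The 2 regions' effects differed by 0.50 ± 0.24 (adjusted p = 0.999). Its second probe set read 8.48, 8.81 and 9.0 in caudal KO cortex, against 8.13, 8.11 and 8.42 in caudal WT cortex, and its other one gave -0.03 ± 0.18 in rostral cortex. Over both regions the 3 probe sets gave 0.27 to 0.56. Animals 13 to 16 gave a difference of 0.90 and animals 1 to 12 one of 0.39, and over 28 other ways of processing it was 0.39 to 0.63 with an adjusted p of 0.078 to 0.46.

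Nefm was next, at 0.43 ± 0.13 over both regions (adjusted p = 0.43). Most of it came from rostral cortex, where the values given above put all 3 KO arrays above all 3 WT arrays, at 0.64 ± 0.18 (adjusted p = 0.63). In caudal cortex the genotypes overlapped, at 0.22. Without rostral KO animal 15, the array high in meningeal genes, the value over both regions was 0.34. Nefl had values of 8.20, 7.64 and 7.25 in caudal KO cortex, against 7.82, 8.53 and 8.27 in caudal WT cortex. Rostral arrays read 7.46, 7.36 and 8.17 in KO animals, against 7.58, 6.71 and 7.24 in WT animals. Its KO effect was -0.51 in caudal and 0.48 in rostral cortex, with overlap in both, and -0.01 over both regions. The difference between regions of -0.99 ± 0.41 did not pass (adjusted p = 0.999). Rostral KO animal 15 was the highest rostral array for both genes.

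Rbfox3 was at -0.24 ± 0.08 over both regions (adjusted p = 0.50). Its 3 tested probe sets gave -0.47 to -0.24, each at an unadjusted p under 0.05 (limma), and none passed across single probe sets. In rostral cortex its 3 KO arrays were all below its 3 WT arrays, at -0.36 ± 0.11 (adjusted p = 0.63). Dpysl2, a collapsin response mediator protein that binds tubulin, read 13.28, 13.38 and 13.29 in rostral KO cortex, against 13.20, 12.97 and 13.12 in rostral WT cortex, with no overlap and a difference of 0.22 ± 0.07 (adjusted p = 0.63). In the mean of its 2 tested probe sets, of which the second lay near the threshold for testing, the difference over both regions was -0.17. In caudal cortex it read 13.10, 13.24 and 13.27 in KO animals and 13.07, 13.15 and 13.24 in WT animals, with overlap. Tubb2b, a beta-tubulin of migrating neurons, was at 0.39 ± 0.12 in rostral cortex (adjusted p = 0.63) and at 0.10 in caudal cortex. Genotypes did not overlap for 10 members in rostral cortex, 7 higher and 3 lower (all genes: 13%, 5.46% higher and 7.5% lower), and for Scrn1 alone in caudal cortex, as higher (all genes: 7.52%, 3.84% higher).

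**Figure D4:**
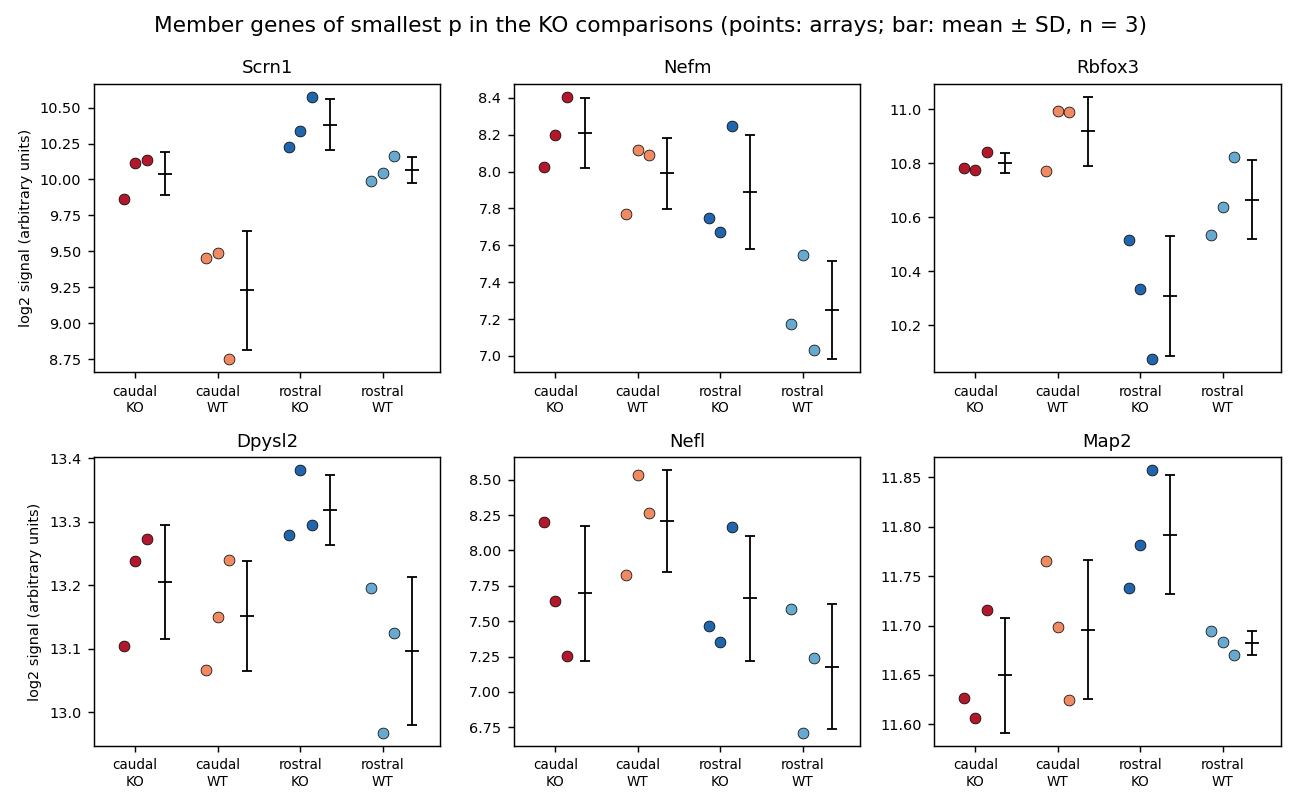
Log2 signal (arbitrary units, vertical axes, each gene on its own scale) of 6 members, 5 among those of smallest p between genotypes or between the regions' KO effects, and Map2, with 1 point per array and bars of mean ± SD (n = 3). KO arrays of Scrn1 lie above WT arrays in both regions, those of Nefm and Dpysl2 lie above and those of Rbfox3 below WT arrays in rostral cortex, and the genotypes overlap for Nefl.

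For the best-known members the intervals bounded the size of a genotype difference in the signal of each gene's brightest tested probe set. Tubb3 was at -0.06 (95% interval -0.18 to 0.06), Stmn1 at 0.01 (-0.06 to 0.09) and Gap43 at 0.07 (-0.08 to 0.21). Dcx, mutated in human lissencephaly, was at -0.03 (-0.28 to 0.22) and Mapt, which encodes tau, at -0.02 (-0.36 to 0.33). Of the presynaptic genes Snap25 was at 0.13 (-0.14 to 0.41), Stx1a at 0.16 (-0.09 to 0.42), Syt1 at 0.12 (-0.16 to 0.39) and Syn2 at -0.01 (-0.25 to 0.22). Wide intervals remained for Map1b (-0.72 to 0.68), Ank3 (-0.49 to 0.81) and Hpca (-0.74 to 0.13). In the same comparison all 8 basal progenitor genes, a list chosen with earlier results of these data known, were lower in KO cortex. Their array means were 9.14 to 9.56 in KO cortex against 9.57 to 9.91 in WT cortex, and Neurod4 (-2.26 ± 0.23, adjusted p = 0.0019) and Eomes (-0.56 ± 0.08, adjusted p = 0.038) passed. These means include Neurod4, which lay above 5.21 on only 7 arrays, with a mean of 4.52 in KO and 6.78 in WT cortex. Over the 8 genes the median difference was -0.18. Of the 36 further cytoskeleton genes 18 were higher and of the 36 further presynaptic genes 19 were higher, with none passing in either.

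The spread of some members followed the animal numbers, a pattern examined after their values were seen. Each group holds 1 of animals 13 to 16, and those 4 arrays were set against the arrays of animals 1 to 12 with the 4 groups in the model. In that model 8 of 42 members passed, all higher in animals 13 to 16, beside 10.3% of all genes, 4.74% as higher. Of the 7 adhesion and axon initial segment genes 5 were among them: Ank3, whose protein ankyrin-G anchors the axon initial segment, Nfasc, Ncam1, Celsr3, an atypical cadherin of axon tracts, and L1cam. The others were Map1b, Dcx and Dpysl3. The labels do not say what, apart from their numbers, sets these animals apart.

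Ank3 read 11.61 in caudal KO animal 13, 11.61 in caudal WT animal 14, 11.12 in rostral KO animal 15 and 11.14 in rostral WT animal 16, against 9.88 to 10.60 in the other 8 animals. The difference was 1.12 ± 0.09 (limma adjusted p = 1.2e-04). Map1b, a microtubule-binding protein gene of growing axons, read 12.15, 12.46, 11.88 and 11.67 in animals 13 to 16, against 10.38 to 11.25 in the others, at 1.14 ± 0.15 (adjusted p = 6.5e-04). In both genes animals 13 to 16 lay above all other arrays, whatever their region and genotype. The other 6 were at 0.66 ± 0.08 (Nfasc), 0.53 ± 0.10 (Ncam1), 0.49 ± 0.09 (Celsr3), 0.39 ± 0.06 (Dcx), 0.37 ± 0.07 (L1cam) and 0.19 ± 0.04 (Dpysl3), each higher in 4 of 4 groups.

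**Figure D5:**
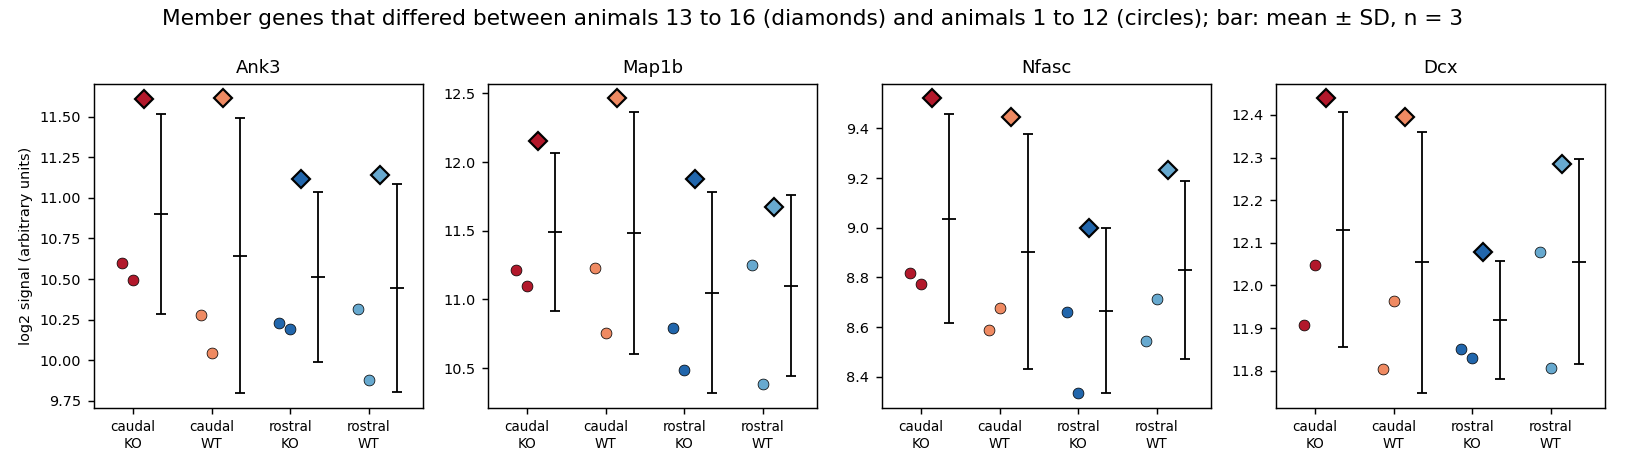
Log2 signal (arbitrary units, vertical axes, each gene on its own scale) of Ank3, Map1b, Nfasc and Dcx, with diamonds for animals 13 to 16, circles for animals 1 to 12 and bars of mean ± SD (n = 3) per group. Within every group the diamond is the highest point, and the fitted differences are 1.12 for Ank3 and 0.39 for Dcx.

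The differences by region of the 8 members that passed held their sign in both sets of animals. These 8 were picked for passing over all 12 arrays, which include both sets, so their agreement is no independent check. Over all 42 members, 35 had the same sign by region in both sets. In animals 13 to 16 the differences were 1.26 for Hpca, 0.81 for Syt4, 0.45 for Syn2, 0.28 for Dpysl4, 0.61 for Nefm, 0.47 for Rbfox3, 0.98 for Cntn2 and -0.92 for Scrn1. In animals 1 to 12 they were 1.35 for Hpca, 0.75 for Syt4, 0.64 for Syn2, 0.84 for Dpysl4, 0.49 for Nefm, 0.32 for Rbfox3, 0.38 for Cntn2 and -0.42 for Scrn1. With the sets as a block all 8 passed, and 11 members passed in all. The KO differences over both regions were less steady, with the same sign in both sets for 20 of all 42 members. By class, 14 of 21 microtubule and growth cone genes had the same sign, and 1 of 8 presynaptic genes did. Genes of a class were read on the same arrays, so these counts are no test of a difference between classes. The presynaptic median was -0.12 from animals 13 to 16 and 0.14 from animals 1 to 12. Hpca was at -1.04 in animals 13 to 16 and at 0.07 in animals 1 to 12, from 1 array per group in the first set and 2 in the second. With the block no member passed between genotypes, and Scrn1 came closest (adjusted p = 0.082).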

How the data were processed

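The deposited values are log2 signals of 45101 probe sets on 12 arrays, already normalised by the authors. The log base and the normalisation were read from the values (array medians of 5.21 to 5.22, range -3.81 to 14.0), and the method, chip reader and build are not given in the sources used here. Gene names came from the platform annotation: 932 probe sets naming several genes and 9211 unnamed here were not used for members.

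A group-means model over all 12 arrays was fitted with limma 3.58.1 (R 4.3.3), with an intensity trend, to 11785 genes, each by its tested probe set of highest mean. Tests are two-sided, and p-values were adjusted by Benjamini-Hochberg over all of these genes, with a threshold of 0.05. A difference is the mean over the 2 regions or genotypes where both are named. P-values measure the spread between arrays of separately numbered animals. The steps were tested on simulated data: 36 of 67 genes changed by 0.5 and 56 of 67 changed by 1 (log2) were recovered in the comparison of region, over 11785 genes. The simulated noise was independent between genes and arrays, without the sets of animals seen in the data. Recovery in the comparison of genotype was not simulated.

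The members and all lists were chosen with earlier results of these data known. Values on every array are given for members that passed in any comparison, for the 3 of smallest p in each comparison of genotype or over both genotypes, and for members whose probe sets disagreed. Of other lists, genes that passed over both genotypes or both regions are named, with Lhx6 and Gsx2 added as limits of their list. Alternatives covered normalisation, filters, probe set choice, variance moderation, array weights, blocks and arrays left out. Promoters are from RefSeq (GRCm38.p6).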

Additional observations from a re-analysis of the deposited data

How the results depend on the processing

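Counts of members between genotypes were 0 in each of the 4 comparisons under all 28 alternatives, of which 12 left out 1 array. Over both genotypes the count by region was 6 to 11 (8 as reported), and 6 to 8 with 1 array left out. Within WT cortex (2 as reported) it was 1 without a filter, 0 when each gene's brightest probe set was adjusted over all single probe sets (2 dimmer Scrn1 probe sets passed there), 0 without the intensity trend, 6 with animals 13 to 16 as a block, 6 with pairs of animal numbers as a random block, 6 at a threshold of 0.10, and 0 to 3 with 1 array left out. Within KO cortex (0 as reported) it was 7 with array weights, 4 with animals 13 to 16 as a block, 4 with the number pairs, 4 at a threshold of 0.10, and 0 to 2 with 1 array left out. Using animals 1 to 12 only, and leaving out animals 6 and 12, the arrays high in Xist, were chosen after seeing the data; without animals 6 and 12 the count was 0 in WT and 1 in KO cortex. The cause was not tested. Under the alternatives run, medians of the microtubule and presynaptic classes moved by less than the spread between arrays (SD of 0.12 and 0.18). That bound is wide enough for a median to change sign. The presynaptic KO median in caudal cortex, 0.07 as reported, ran from -0.11 to 0.20 with 1 array left out. In animals 13 to 16 alone the presynaptic KO median in rostral cortex was -0.20, against 0.06 over all arrays. Dpysl2 between genotypes was -0.166 with the mean of its probe sets, against 0.14 as reported. The labels name no pairs, since every array carries its own animal number. The number pairs above follow the order of the labels and had a consensus correlation of 0.258. Animals 6 and 12, the arrays high in Xist, form 1 of these pairs. Whether the arrays of a pair came from the same embryo is not stated.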
